A study of Homo sapiens with 8 samples.

Results

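MOLM13 cells in which IGF2BP2 had been knocked down and given back as the wild-type gene (rescue) were compared with knockdown cells given a mutant of IGF2BP2 (mutant rescue). MOLM13 is an established human acute myeloid leukemia line that carries a KMT2A-MLLT3 fusion and an internal tandem duplication of FLT3. The comparison used 4 of the 8 mRNA libraries, 2 of each kind, chosen by their labels alone, and 13016 of the 35370 genes in the deposited table passed a filter on low values. The other libraries were 2 controls with a wild-type genotype label and 2 of the IGF2BP2 knockdown, labelled shIGF2PB2 in the titles, where the letters of the gene name are transposed. The genotype labels of the 2 rescue groups read IGF2BP2 rescue and IGF2PB2-mut rescue. One protocol covers all groups, with viral infection and puromycin where selection was needed. The mutation, the hairpin, the promoter that drives the constructs and any empty vector in control or knockdown cells are not stated in the labels. The labels do not say that replicates were separate cultures, so a p-value here measures only the spread between libraries, which may be technical.

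IGF2BP2 is an RNA-binding protein that recognises mRNA carrying N6-methyladenosine, a methyl mark on adenosine, and is known for holding such mRNA in a stable, translated state. The genes with the largest differences between the rescue groups belong to the interferon response, an antiviral program. In that program, sensors of viral or misplaced nucleic acid lead to the release of type I interferon. Interferon binds the receptor of IFNAR1 and IFNAR2, whose kinases JAK1 and TYK2 phosphorylate transcription factors of the STAT family. With IRF9, STAT factors form a complex that binds the interferon-stimulated response element (ISRE) in promoters. STAT factors without IRF9 bind the gamma-activated sequence (GAS).

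These are stretches of the promoters of 10 genes of that response that were higher in rescue, shown because they hold letters those factors are known to bind. Each comes from RefSeq promoter entries on GRCh38.p14, which run from 250 bases before to 50 bases after a gene's start. Capitals mark an ISRE core (GAAA, any 2 bases, GAAA, on either strand, so that it can read as its reverse complement) or a GAS motif (TTCNNNGAA), and overlapping motifs form 1 run of capitals. Sequences are 5′ to 3′ on the gene's strand. IFIT1 was read at chr10:89392500-89392549, IFIT3 at chr10:89327855-89327904, RSAD2 at chr2:6877612-6877661, ISG15 at chr1:1013370-1013419, IFI27 at chr14:94110621-94110670 and OAS3 at chr12:112938442-112938473, all on the + strand. IFITM3 was read at chr11:320866-320915 and CXCL10 at chr4:76023689-76023738, both on the - strand. For IFITM1 (chr11:314008-314039, + strand) and IRF1 (chr5:132490869-132490917, - strand) the stretch printed holds a GAS motif and no ISRE core. The rest of each entry is not shown, so an ISRE core farther from the start is not excluded.
IFIT1: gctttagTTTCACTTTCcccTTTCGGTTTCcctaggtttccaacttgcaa
IFIT3: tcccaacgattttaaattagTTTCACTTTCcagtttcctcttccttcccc
RSAD2: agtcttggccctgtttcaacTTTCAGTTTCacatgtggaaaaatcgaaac
ISG15: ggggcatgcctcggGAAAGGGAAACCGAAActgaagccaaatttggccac
IFI27: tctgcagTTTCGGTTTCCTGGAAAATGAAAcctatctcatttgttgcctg
OAS3: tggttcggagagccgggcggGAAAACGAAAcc
IFITM3: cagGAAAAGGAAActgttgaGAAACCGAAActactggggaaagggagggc
CXCL10: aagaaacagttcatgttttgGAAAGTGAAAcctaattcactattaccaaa
IFITM1: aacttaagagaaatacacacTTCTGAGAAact
IRF1: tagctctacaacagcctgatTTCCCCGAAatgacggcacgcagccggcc

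All levels below are log2 values as deposited, so 1 unit is a doubling of the deposited value, and a difference is rescue minus mutant rescue with its standard error (SE). Low genes lie drawn together on this scale, so that differences and folds between deposited values understate theirs. High genes such as IFITM1 (3.13 against 3.66) and LYZ (-1.42 against -1.7) also differed by less than in the authors' deposited changes. A gene was called where limma's adjusted p was under 0.05. Of the 13016 genes, 767 (5.89%) were called higher and 601 (4.62%) lower in rescue, and the median difference over all genes was -0.02. The called-higher genes reached further: 113 differed by more than 1 log2 unit and 19 by more than 2, against 43 and 1 of the lower genes. The libraries of the groups did not overlap for 27.8% of genes with rescue above and 30.2% with rescue below.

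The second mutant rescue library stood apart from the first. On the second principal component, which held 25.6% of the variance, the rescue libraries lay at 21.36 and 23.33, and mutant rescue 1 and 2 lay at -7.45 and -21.48. Replicates differed with an SD over genes of 0.303 log2 units in mutant rescue, 0.232 in rescue, 0.212 in control and 0.148 in knockdown. The fit pools the spread of these 4 groups, so each SE and adjusted p rests partly on groups outside the comparison. It can understate the spread of the 2 rescue groups. Counts of calls moved with the libraries used. There were 193 calls when only the 4 rescue libraries entered the fit, and 674, 241, 2869 and 692 without rescue 1, rescue 2, mutant rescue 1 and mutant rescue 2, in that order. Without knockdown 1 or 2, which only lend their spread, there were 589 and 587. A core of 215 genes was called with all libraries and without any 1 of the 4 rescue libraries, 163 of them higher and 52 lower in rescue. Below, a gene described as higher or lower in rescue than in mutant rescue kept that call when any 1 of the 8 libraries was left out unless the text names the library that ended it.

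The libraries held the markers of a myeloid leukemia line. All 9 of those markers passed the filter, with a summed share of 1710 to 1790 ppm in rescue and 1320 to 1700 ppm in mutant rescue. No erythroid, fibroblast, or hepatocyte and kidney marker passed, and their sums stayed at or below 2.61 ppm in every library. Of T and NK cell markers 1 of 7 passed (sum 17.8 to 21.7 ppm), of megakaryocyte markers 2 of 5 (3.32 to 4.25 ppm) and of epithelial markers 3 of 5 (7.94 to 12.4 ppm). Among 5 B-cell markers, PAX5 was higher in rescue by 0.70 ± 0.08 (SE, adjusted p = 0.00143), from levels of 5.30 and 5.39 in rescue and 4.66 and 4.64 in mutant rescue, and the list's sum was 4.77 to 5 ppm against 3.62 to 3.63 ppm. Its part in the results was not tested. In bulk RNA, fewer cells of a type and less RNA per cell cannot be told apart.

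IGF2BP2 mRNA was measured at 11.36 and 11.13 in rescue and 11.03 and 10.68 in mutant rescue. The controls were at 10.94 and 10.89 and the knockdown libraries at 10.24 and 10.25. Every library of both rescue groups was therefore above the knockdown libraries, and all rescue values were above the mutant rescue values. The difference of 0.39 ± 0.13 (SE) between rescue and mutant rescue did not pass the test (adjusted p = 0.084), and was 0.57 without mutant rescue 1 (adjusted p = 0.0161). The gene lies on the - strand at chr3:185643739-185825056 (GRCh38, GENCODE v29). Gene-level values do not separate the cell's own transcript from that of a construct. Its relatives, named after their values were seen, had differences of -0.06 (IGF2BP1, adjusted p = 0.801) and 0.28 (IGF2BP3, adjusted p = 0.407). IGF2BP3 was at 8.57 and 8.92 in rescue and at 8.82 and 8.10 in mutant rescue, and reached 0.64 (adjusted p = 0.0308) without mutant rescue 1.

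The other genes of the series title did not pass the test either. PRMT6, an arginine methyltransferase (chr1:107056679-107067636, + strand), was at 8.81 and 8.70 in rescue and at 8.49 and 8.49 in mutant rescue. The difference was 0.26 ± 0.11 (SE, adjusted p = 0.137), with the rescue libraries on top. MFSD2A, a transporter of lysophospholipids (chr1:39955112-39969968, + strand), was at 9 and 8.73 in rescue and at 8.87 and 8.60 in mutant rescue. These values overlapped, with a difference of 0.13 ± 0.13 (SE, adjusted p = 0.527), which was -0.0026 without mutant rescue 2.

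The interferon response held most of the largest differences. Over 11 lists of its ligands, sensors, signalling proteins and effectors, 138 genes passed the filter, of which 85 were called higher and 4 lower in rescue, where 5.89% and 4.62% of all genes were. Of the 19 genes higher by more than 2 log2 units, 15 were on these lists, and of the 113 higher by more than 1 unit, 59 were. The lists were compiled with earlier results of these data known, so these counts describe the lists and no more. Of the core of 163 genes that stayed higher without any 1 of the rescue libraries, 68 were on them. Many of these genes have near-identical relatives (IFNA, IFITM, IFIT, OAS, APOBEC3, HLA), between which the counting could split reads.

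**Figure D1:**
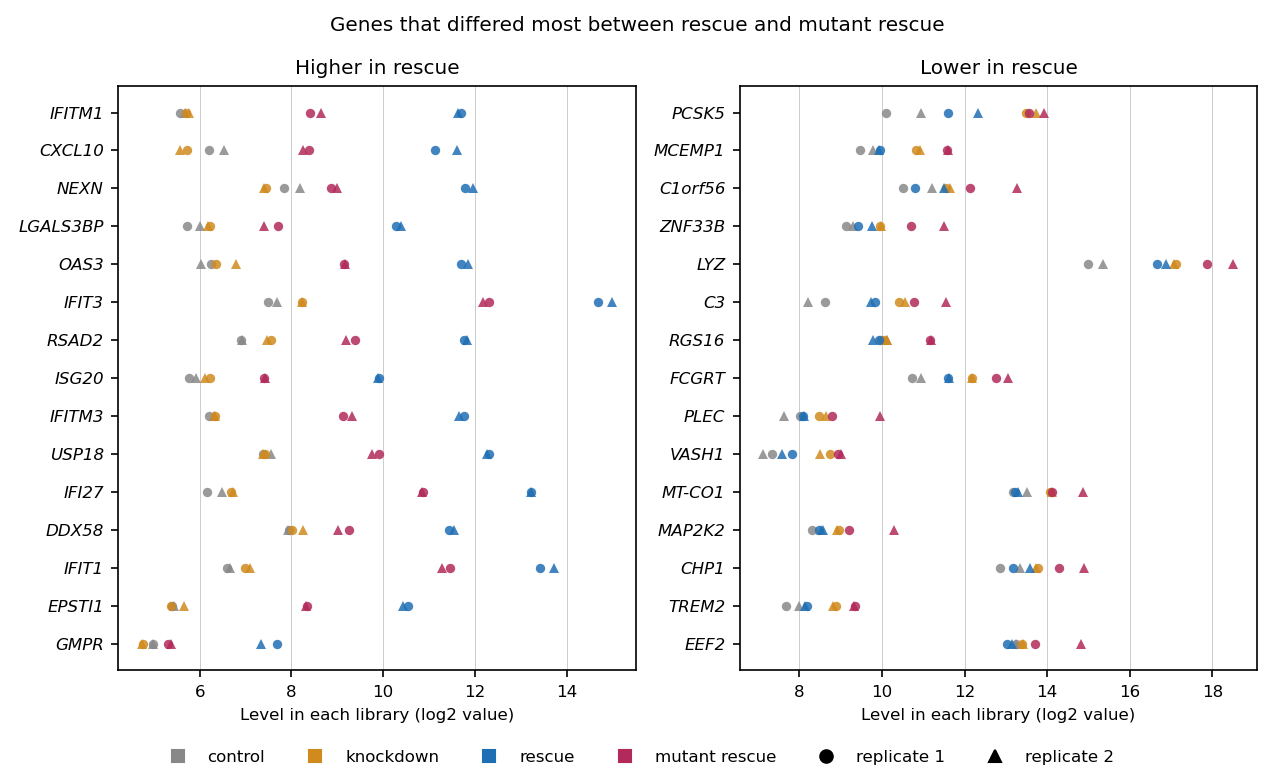
Level in each of the 8 libraries (log2 value, horizontal axis) of the genes with the largest differences, with 1 colour per group and 1 marker shape per replicate. For IFITM1 the 2 rescue libraries (11.69 and 11.63) lie above both mutant rescue libraries (8.40 and 8.65), and control and knockdown libraries lie lower still, between 5.56 and 5.76.

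Among ligands, 12 of 22 interferon genes had any value and 1, IFNA2, passed the filter. IFNA2 was at 4.52 and 4.76 in rescue and at 3.49 and 3.58 in mutant rescue, a difference of 1.10 that is given without a test, since the gene reached the filter only in the rescue libraries. Control and knockdown libraries were at 3.48 to 3.49, level with mutant rescue 1, and values this low lie close together in the deposited table. IFNB1, which did not pass the filter, was listed at 3.5 and 3.67 in rescue and at 3.07 and 3.01 in mutant rescue. With no filter on low values, 6 of the 12 were called higher, with a median of 0.23, where 477 of all 24407 genes were. These calls rest on low values and are given no weight. No interferon gene had a level above 4.76 in any library.

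Sensors of nucleic acid were higher in rescue: 13 of 25 tested were called higher and 1 lower, with a median difference of 0.47. Across all genes, 5.89% were called higher and 4.62% lower. DDX58, which encodes the RNA sensor RIG-I, was at 11.44 and 11.55 in rescue against 9.26 and 9.02 in mutant rescue, 5.12-fold higher (2.36 ± 0.13 log2, SE, adjusted p = 4.16e-05). DHX58 encodes its relative LGP2 and was higher by 1.90 ± 0.15 (adjusted p = 0.000303), at 8.20 and 8.03 against 5.99 and 6.43. IFIH1, the gene of the long-RNA sensor MDA5, was at 11.63 and 11.11 against 9.95 and 9.48 (1.66 ± 0.20, adjusted p = 0.0025). The 3 genes of this receptor family thus all stood above mutant rescue with no overlap of libraries, as 27.8% of all genes did. EIF2AK2, the kinase PKR that halts translation on double-stranded RNA, was higher by 1.31. The DNA sensors IFI16 and AIM2 of the same list were higher by 1.41 and 1.04. MAVS and TMEM173 (STING), adaptors downstream of these sensors, had differences of 0.22 (adjusted p = 0.317) and -0.18 (adjusted p = 0.226). NOD2, a sensor of bacterial cell wall, was the called-lower member at -1.02, from 4.20 and 4.20 against 5.45 and 5, a call that ended without rescue 2 (adjusted p = 0.063).

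The interferon receptor genes IFNAR1 and IFNAR2 did not pass the test, at differences of -0.07 and -0.26. Of 12 tested genes of receptors, JAK kinases and STAT factors, 2 were higher and 1 lower, with a median of -0.01. All counts in this paragraph stand beside 5.89% of all genes called higher and 4.62% called lower. STAT2 was higher by 0.66 ± 0.11 (adjusted p = 0.012), a call that ended without rescue 2 (0.64, adjusted p = 0.0841), and its partner IRF9 differed by 0.29 (adjusted p = 0.0982). The called-lower member was IL10RB, a chain of the interleukin-10 and lambda interferon receptors, at -0.56, also lost without rescue 2 (-0.50, adjusted p = 0.105). Of 11 interferon regulatory factors and related genes, 4 were higher, IRF1 (1.75), IRF7 (1.60), ETV7 (1.18) and BATF2 (1.05). IRF5 was called lower (-0.40, adjusted p = 0.0435), and kept that call only without mutant rescue 2 among the leave-outs, with adjusted p from 0.0568 to 0.179 in the others. IRF1 showed values of 10.52 and 10.43 in rescue and 8.67 and 8.78 in mutant rescue, and the knockdown libraries, at 9 and 9.09, lay above mutant rescue. USP18, which removes ISG15 and blocks the interferon receptor, led the feedback inhibitors at 12.31 and 12.27 against 9.90 and 9.75 (2.47 ± 0.11, adjusted p = 2.35e-05). Of that list of 12, TRIM21 was also called higher (0.51) and CISH lower (-0.57), and both calls ended without rescue 2 (adjusted p = 0.159 and 0.187), mutant rescue 2 (0.0988 and 0.0787) and either knockdown library (0.0682 and 0.0683 for TRIM21, 0.07 and 0.0701 for CISH). TRIM21 also lost its call without rescue 1 (0.0694), and CISH without either control (0.0593 and 0.0593).

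Effector genes held the largest differences, and their counts stand beside 5.89% of all genes called higher. The IFIT genes encode proteins that bind foreign RNA ends, and 4 of 4 tested were higher, by 1.88 (IFIT5) to 2.59 (IFIT3). IFIT3 was at 14.68 and 14.99 in rescue and at 12.30 and 12.18 in mutant rescue, 6.04-fold higher (SE 0.12, adjusted p = 2.35e-05). Of the IFITM genes, whose membrane proteins block virus entry, 2 of 3 tested were higher. IFITM1 had the largest difference of all genes, 3.13 ± 0.13 (SE), or 8.78-fold (adjusted p = 2.35e-05). IFITM3 followed at 2.48, from 11.77 and 11.66 against 9.13 and 9.33, while IFITM2, at 9.85 and 9.80 against 9.35 and 9.59, differed by 0.36 (adjusted p = 0.119). The rescue libraries were above both mutant rescue libraries for all 3, as for 27.8% of all genes. The enzymes of OAS3, OAS2 and OAS1 make an antiviral second messenger from ATP, and these genes were higher by 2.62, 1.66 and 1.48. Their relative OASL, whose protein does not make it, was higher by 2.01.

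On the list of the ISG15 system, which attaches the small protein ISG15 to other proteins, 7 of 7 tested genes were higher, with a median of 1.78. This list also holds ISG20 (2.48), which has no part in that attachment. ISG15 was at 11.03 and 10.85 against 9.05 and 9.27 (1.78 ± 0.19, SE, adjusted p = 0.00119). The activating enzyme gene UBA7 was higher by 1.05, the conjugating enzyme gene UBE2L6 by 1.64 and the ligase gene HERC5 by 2.11. Among 56 tested restriction factors and other effectors, 46 were higher and none was lower, where 5.89% and 4.62% of all genes were. Their median was 1.01. Leaving out 1 of the 8 libraries gave 35 to 46 higher, and 1 lower without mutant rescue 1. LGALS3BP (2.78), RSAD2 (2.51) and IFI27 (2.37) led this list. RSAD2, the gene of the antiviral enzyme viperin, was at 11.76 and 11.82 against 9.38 and 9.18. MX1 and MX2, which encode antiviral GTPases, were higher by 1.15 and 1.96, and BST2, whose protein tethers budding virus, by 0.97. Guanylate-binding protein genes, which act at vacuoles of pathogens, were low: GBP1 was at 4.33 and 4.42 against 3.56 and 3.64 and reached the filter only in rescue, and GBP4 (1.05) and GBP5 (0.68) were called higher. IFNA2 and GBP1 were the 2 of the 85 called-higher interferon genes, and among 4 of all 767, that reached the filter in rescue alone.

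Mutant rescue libraries were not without this response. The IFIT genes averaged 12.65 and 12.85 in the rescue libraries and 10.60 and 10.48 in the mutant rescue libraries, against 7.04 and 7.19 in the knockdown and 6.70 and 6.77 in the control libraries. Against the same knockdown libraries, their median difference was 6.15 for rescue and 3.81 for mutant rescue. The medians were 5.07 and 3.08 for the OAS list, 3.72 and 1.41 for the ISG15 system, and 1.82 and 0.91 for the restriction factors and effectors. For the guanylate-binding protein genes they were 0.70 and 0.03, and IRF1 differed from knockdown by 1.43 in rescue (adjusted p = 5.22e-05) and by -0.32 in mutant rescue (adjusted p = 0.0704). Between knockdown and control the medians were 0.55 for the OAS list, 0.41 for the IFIT genes, 0.24 for the ISG15 system and 0.16 for the restriction factors and effectors. In the knockdown 3 of 5 genes of the OAS list and 11 of 56 effectors were called higher than in control, where 5.35% of all genes were. Both comparisons with knockdown share its libraries and are set side by side only.

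Cytokine and chemokine genes were split, and their counts stand beside 5.89% of all genes called higher and 4.62% called lower. CXCL10, an interferon-induced chemokine that attracts T cells, was at 11.13 and 11.61 in rescue and at 8.38 and 8.25 in mutant rescue, 8.32-fold higher (3.06 ± 0.18, SE, adjusted p = 6.82e-05). CXCL11, a ligand of the same receptor, was higher by 2.04 ± 0.20 (adjusted p = 0.000878), at 7.17 and 7.27 against 5.55 and 4.81. TNFSF10, the death ligand TRAIL, and IL1RN, the interleukin-1 receptor antagonist, were higher by 1.54 and 1.10. Of 18 tested members 7 were higher, and the 2 called lower, IL18 and IL1B, lost the call without either rescue library (IL18 adjusted p = 0.131 and 0.124, IL1B 0.104 and 0.165), without mutant rescue 2 (0.108 and 0.148) and without either knockdown library (IL18 0.0802 and 0.08, IL1B 0.0627 and 0.0629), IL1B also without either control (0.0604 and 0.06).

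Regulators and targets of NF-kB, the inflammatory transcription factor, were higher for 6 of 23 tested and lower for none, with a median of 0.09. The shares of all genes were 5.89% higher and 4.62% lower. Both feedback inhibitors NFKBIA and TNFAIP3 were among them. NFKBIA was at 13.66 and 13.44 in rescue and 12.24 and 12.09 in mutant rescue (1.39 ± 0.11, SE, adjusted p = 0.000319), and TNFAIP3 was higher by 1.47 ± 0.19 (adjusted p = 0.00317). NFKBIZ was higher by 1.03 and the surface protein gene CD83 by 0.88.

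Antigen presentation divided by class, with counts that stand beside 5.89% of all genes called higher and 4.62% called lower. For MHC class I, which shows peptides from inside the cell, 9 of 21 tested genes were higher and none lower, with a median of 0.31. Peptide transporter genes TAP1 and TAP2 were higher by 1.63 ± 0.15 (SE, adjusted p = 0.000643) and 1.14, and the immunoproteasome genes PSMB9 and PSMB8 by 1.08 and 0.80. The count was 4 without rescue 2 and 5 without either knockdown library, and 1 gene was lower without mutant rescue 1. For MHC class II, which shows peptides taken up from outside, 1 of 13 tested was higher and 6 were lower, with a median of -0.10. HLA-DRA was at 6.49 and 6.51 in rescue and at 7.43 and 7.43 in mutant rescue (-0.92 ± 0.12, SE, adjusted p = 0.0042). HLA-DMA and HLA-DMB, whose products load class II molecules, were at -0.97 and -0.73. The called-higher member, HLA-DQA1 at 0.68, lost its call without rescue 2 (0.56, adjusted p = 0.153) and without either knockdown library (adjusted p = 0.059 and 0.0591). The count of lower class II genes was 3 without rescue 2.

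**Figure D2:**
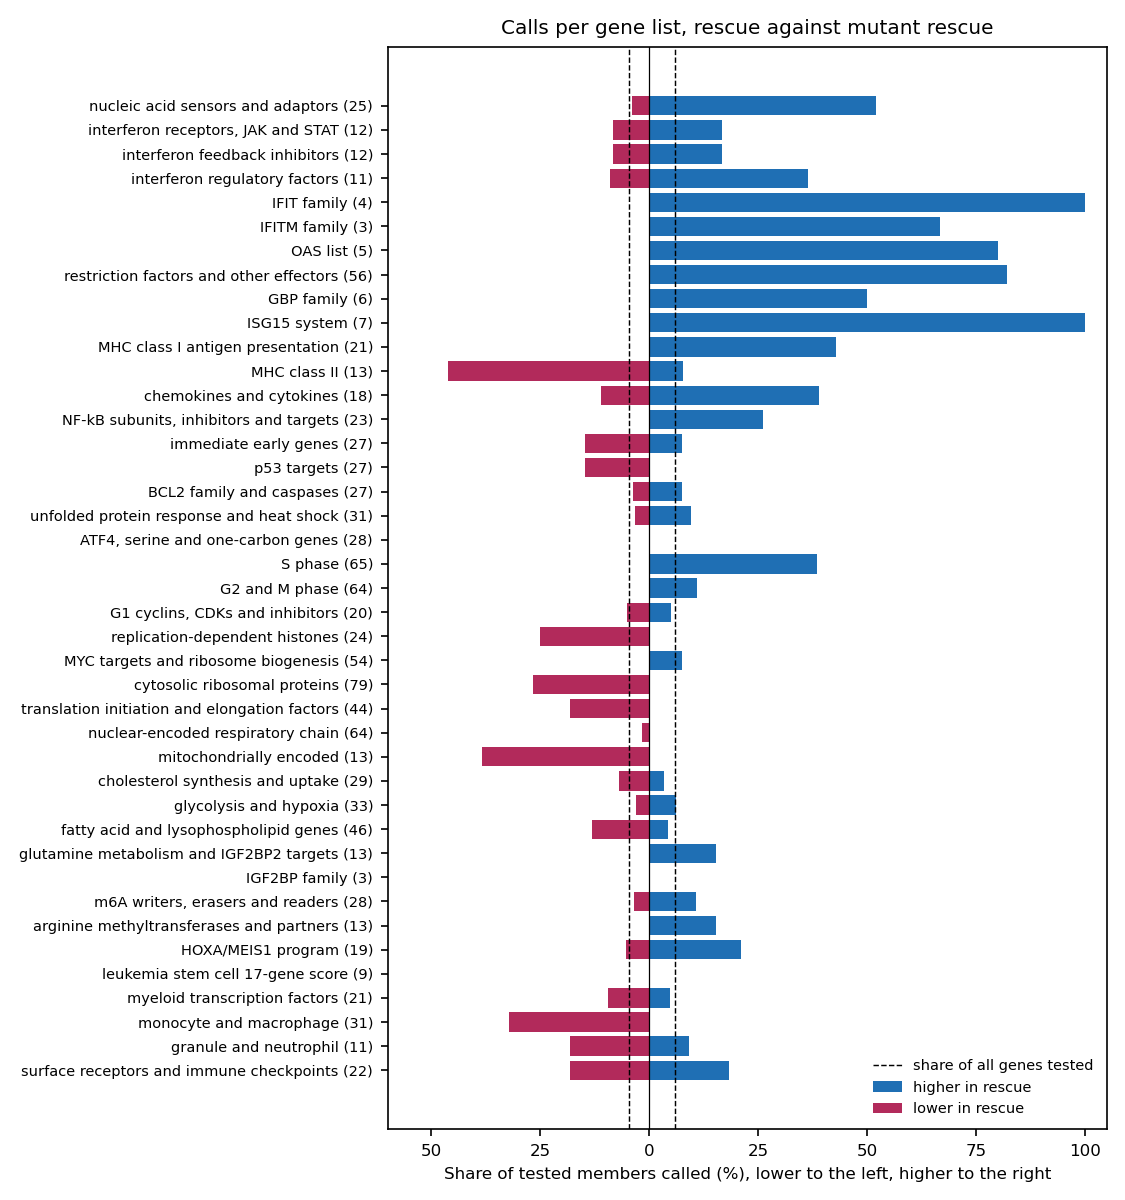
Share of tested members of each gene list with at least 3 tested members called higher (bars to the right) or lower (bars to the left) in rescue against mutant rescue, in percent, with the number tested in brackets. Dashed lines mark the shares of all genes tested, 5.89% and 4.62%. The IFIT and ISG15 lists reach 100% to the right, and the longest bar to the left is that of MHC class II.

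NEXN and GMPR were the genes above 2 log2 units, besides the chemokines, that no interferon list held. NEXN encodes nexilin, an actin-binding protein, and was at 11.78 and 11.96 in rescue and at 8.87 and 8.99 in mutant rescue, 7.67-fold higher (2.94 ± 0.14, SE, adjusted p = 2.35e-05). Knockdown libraries were at 7.44 and 7.41. GMPR, a guanosine monophosphate reductase, was at 7.68 and 7.33 against 5.31 and 5.38, 4.48-fold higher (adjusted p = 4.79e-05).

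The promoter entries were searched for the 2 motifs printed above. An ISRE core stood in 3.57% and a GAS motif in 7.66% of all 35116 entries of 300 bases, and 154 entries held both. By gene, an ISRE core was found for 4.14% of the 10100 tested genes with an entry, for 73 of 535 called higher (13.6%) and for 11 of 466 called lower (2.36%). Within the called-higher genes the share was 75% (12 of 16) above 2 log2 units, 36.9% (24 of 65) from 1 to 2, 9.25% (26 of 281) from 0.5 to 1 and 6.36% (11 of 173) below 0.5. GAS motifs were found for 8.72% of tested genes, 14.6% of those called higher and 8.58% of those called lower. NEXN had neither motif. A match describes the letters in this window and is no proof of a bound site.

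S phase genes, which copy DNA, were the other large group above mutant rescue. Of 65 tested, 25 were higher and none lower, where 5.89% and 4.62% of all genes were. The list had a median of 0.36 and 57 positive differences. MCM7, a subunit of the replicative helicase, was at 12.35 and 12.36 in rescue and at 11.77 and 11.69 in mutant rescue (0.63 ± 0.08, SE, adjusted p = 0.00419). HELLS, a chromatin remodeller, had the largest called difference, 1.22 ± 0.15 (adjusted p = 0.00257), at 12.22 and 12.71 against 11.19 and 11.30. EXO1, a repair exonuclease, was higher by 0.86, a call that ended without rescue 2 (0.83, adjusted p = 0.0697). The list's median barely moved with the libraries, at 0.33 to 0.41 without any 1 of the rescue libraries, but its count of calls did. It was 7 without rescue 1, 2 without rescue 2, 31 without mutant rescue 1 with 2 lower, 11 without mutant rescue 2, and 8 without either knockdown library, and it was 1 in the fit of the 4 rescue libraries alone.

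G2 and M phase genes, which divide the chromosomes, had 7 of 64 called higher and none lower, with a median of 0.19 and 54 positive. The share of all genes called higher was 5.89%. BUB1, a spindle checkpoint kinase, was at 9.98 and 10.00 against 9.41 and 9.29 (0.64 ± 0.11, SE, adjusted p = 0.0106), and its call ended without rescue 2 (adjusted p = 0.0777). The count was 2 without rescue 1, 0 without rescue 2, 14 without mutant rescue 1 with 1 lower, 3 without mutant rescue 2 and 2 without either knockdown library. Against the knockdown libraries, the median of the S phase genes was 0.37 in rescue and -0.01 in mutant rescue, and that of the G2 and M phase genes 0.17 and 0.02. In the knockdown itself 45 and 38 of these genes were below control, where 7.45% of all genes were called lower. Those counts fell to 6 and 2 without either knockdown library and to 29 and 29 without control 1, and to 24 and 14 without control 2.

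Replication-dependent histone genes, whose mRNA is made in S phase, did not follow. None of 24 tested was higher and 6 were lower, where 5.89% and 4.62% of all genes were, with a median of -0.19. HIST1H4C was at 13.09 and 12.98 in rescue and at 13.63 and 13.80 in mutant rescue (-0.68 ± 0.11, SE, adjusted p = 0.00858), a call that ended without rescue 2 (adjusted p = 0.0777). The count was 2 without rescue 1, 0 without rescue 2, and 3 without either knockdown library. Most of these mRNAs lack the poly(A) tail on which the RNA was selected, and the histone genes resemble each other closely.

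**Figure D3:**
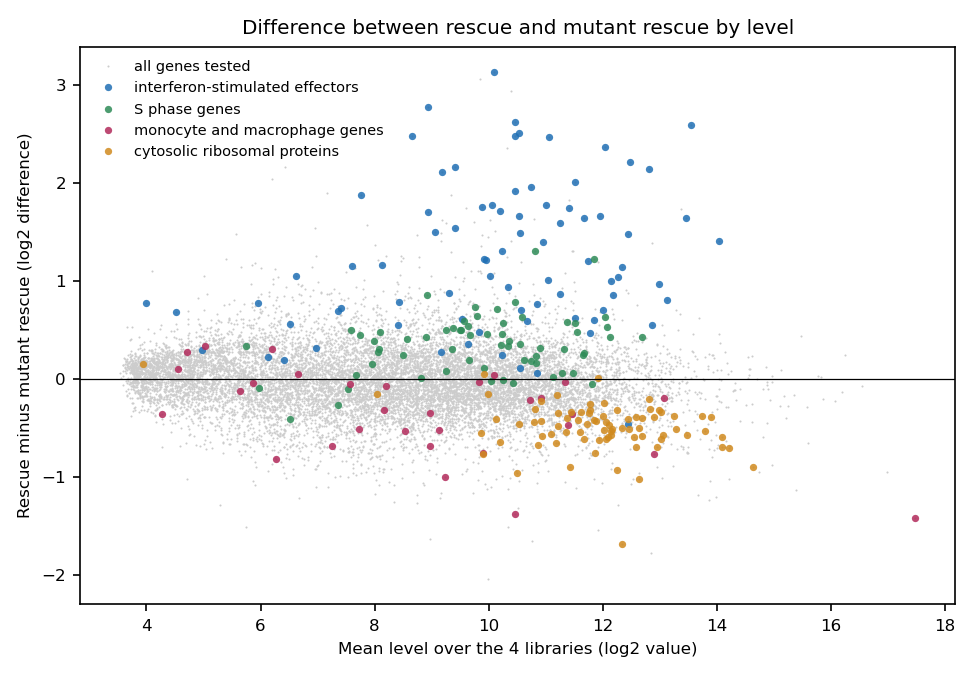
Rescue minus mutant rescue (log2 difference, vertical axis) against the mean level of the 4 libraries (log2 value, horizontal axis) for all 13016 genes in grey and 4 groups in colour. Interferon-stimulated effectors reach up to 3.13, S phase genes lie mostly above 0, and monocyte genes and ribosomal protein genes lie mostly below 0.

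Of 31 tested genes of monocytes and macrophages, 10 were called lower in rescue and none higher, with a median of -0.32 and 6 positive differences. Among all genes 4.62% were called lower and 5.89% higher. LYZ, the lysozyme of monocytes and granules, was at 16.66 and 16.88 in rescue and at 17.86 and 18.51 in mutant rescue (-1.42 ± 0.22, SE, adjusted p = 0.00804). The knockdown libraries, at 17.13 and 17.07, lay between, and the controls were at 14.99 and 15.36. Under quantile normalization LYZ, the highest gene of each rescue and mutant rescue library, had a difference of 0 and no call. C3, a complement protein, differed by -1.38, and lost its call without rescue 2 (-1.34, adjusted p = 0.0719). The list's count was 5 without rescue 1, 1 without rescue 2, 6 without mutant rescue 2, 5 without either knockdown library, and 0 in the fit of the 4 rescue libraries alone.

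Other genes of myeloid cells, outside that list, were named because they were among the largest decreases or were lower here and higher in knockdown, so their direction was fixed by that choice. MCEMP1, a surface protein of mast cells and monocytes, was at 9.95 and 9.92 in rescue and at 11.57 and 11.59 in mutant rescue (-1.65 ± 0.11, SE, adjusted p = 0.000153). FCGRT, the gene of the neonatal Fc receptor, was at 11.60 and 11.63 against 12.77 and 13.05 (-1.29). TREM2, a lipid receptor of macrophages, was at 8.18 and 8.14 against 9.34 and 9.33 (-1.18), and LGALS3, the gene of galectin-3, differed by -1.16. GRN, which encodes progranulin, was at -0.88. For the genes among the largest decreases, the lack of overlap between the groups was fixed by that choice as well. RGS16, a regulator of G protein signalling, was at 9.93 and 9.78 against 11.16 and 11.19 (-1.32 ± 0.10, adjusted p = 0.000222). PCSK5, a proprotein convertase, had the lowest difference among the genes named by the rule, at 11.60 and 12.32 against 13.55 and 13.93 (-1.78 ± 0.31, adjusted p = 0.0114), a call that ended without rescue 1 (-1.42, adjusted p = 0.0508).

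Part of the translation machinery was called lower in rescue. Of 79 cytosolic ribosomal protein genes, 21 were called lower and none higher, with a median of -0.48, and for 70 both rescue libraries lay below both mutant rescue libraries. Across all genes tested, 4.62% were called lower and 30.2% had both rescue libraries below. RPLP0, a protein of the ribosomal stalk, was at 14.26 and 14.11 in rescue and at 15.00 and 15.17 in mutant rescue (-0.90 ± 0.11, SE, adjusted p = 0.00291). For the list, the median was -0.30 against mutant rescue 1 alone and -0.64 against mutant rescue 2 alone. Counts of lower genes were 4, 1, 61 and 3 without rescue 1, rescue 2, mutant rescue 1 and mutant rescue 2, and 2 without either knockdown library. Ribosomal protein genes have many processed copies in the genome, which could share reads.

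Elongation and initiation factors gave 8 of 44 lower and none higher, with a median of -0.16 and 13 positive differences. EEF1G was at 13.16 and 13.07 against 13.70 and 14.06 (-0.76 ± 0.14, adjusted p = 0.013), lost without rescue 2 (adjusted p = 0.0912). The count was 2 without rescue 1, 0 without rescue 2, 14 without mutant rescue 1 with 2 higher, 4 without mutant rescue 2 or either control, and 3 without either knockdown library. The mRNAs encoded in mitochondria, which make respiratory chain subunits, were below mutant rescue for 13 of 13 tested by library, with 5 called and a median of -0.72. The shares of all genes were 30.2% below by library and 4.62% called lower. MT-CO1 was at 13.22 and 13.29 against 14.12 and 14.87 (-1.24 ± 0.22, adjusted p = 0.0122), and lost its call without rescue 1 (adjusted p = 0.053) and rescue 2 (adjusted p = 0.0725). Their median was -0.46 against mutant rescue 1 and -0.98 against mutant rescue 2. Without rescue 1 or rescue 2 none was called, without mutant rescue 1 there were 8, and without mutant rescue 2 or either knockdown library 1. Of 64 nuclear genes of the respiratory chain, NDUFB5 was called (-0.38), with a list median of -0.29. It kept its call in none of the leave-outs but that of mutant rescue 1, with adjusted p of 0.0512 to 0.22 in the others.

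**Figure D4:**
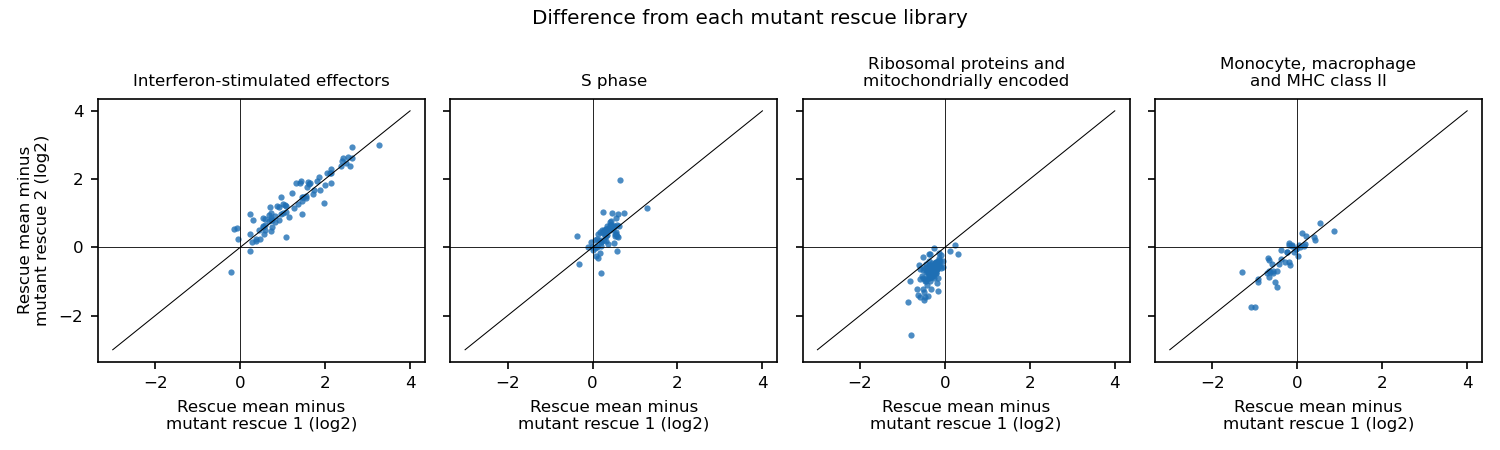
Mean of the rescue libraries minus mutant rescue 1 (horizontal axis) and minus mutant rescue 2 (vertical axis), both in log2, with 1 point per gene in 4 panels of gene groups, where ribosomal protein and mitochondrially encoded genes share a panel. The diagonal marks equal differences. Interferon-stimulated effectors lie along the diagonal, and ribosomal protein and mitochondrially encoded genes lie mostly below it, with medians of -0.30 and -0.46 against mutant rescue 1 and -0.64 and -0.98 against mutant rescue 2.

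Some stress and growth arrest genes were called. The p53 target list had 4 of 27 lower (4.62% of all genes were) and none higher, with a median of -0.14, and none without rescue 2. CDKN1A, the cell cycle inhibitor p21, was at 13.80 and 13.80 in rescue and at 14.57 and 14.43 in mutant rescue (-0.69 ± 0.10, SE, adjusted p = 0.00537), and lost its call without rescue 2 (adjusted p = 0.0532). BAX, a killer of the BCL2 family, differed by -0.74, lost without rescue 2 (adjusted p = 0.0822), while PMAIP1, the gene of NOXA from the same family, was higher by 0.93 ± 0.12 (adjusted p = 0.00356). Immediate early genes, which respond to growth signals within minutes, had 2 of 27 higher and 4 lower, where 5.89% and 4.62% of all genes were. FOS was at 10.54 and 10.34 against 11.36 and 11.25 (-0.86 ± 0.10, adjusted p = 0.00221), and NR4A2, a nuclear receptor of the same list, was higher by 0.64. The count of lower genes was 1 without rescue 2 and 9 without mutant rescue 1.

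The counts in this paragraph stand beside 5.89% of all genes called higher and 4.62% called lower. Of the genes tied to IGF2BP2 and its mark, 28 were tested on a list of writers, erasers and readers of N6-methyladenosine and related RNA-binding proteins. On it 3 were higher (G3BP2 0.59, RBM15 0.50, G3BP1 0.43) and 1 was lower (PABPC1 -0.73). None of these was called without rescue 1 or rescue 2 (adjusted p = 0.0541 and 0.126 for G3BP2, 0.129 and 0.14 for RBM15, 0.0799 and 0.112 for G3BP1, 0.113 and 0.178 for PABPC1), without mutant rescue 2 (0.0654, 0.124, 0.058 and 0.0706 in that order) or without either knockdown library (0.0513 to 0.0883). PABPC1 also lost its call without either control (0.0675 and 0.0676). Among 13 tested genes of glutamine metabolism and mRNA targets of IGF2BP2 named in earlier leukemia work, 2 were higher. SLC38A1, an amino acid transporter, was at 9.69 and 9.73 against 9.14 and 9.04 (0.62 ± 0.11, adjusted p = 0.013), lost without rescue 2 (0.60, adjusted p = 0.0877). SLC1A5, the glutamine transporter of that list, differed by 0.68 at adjusted p = 0.0472 and lost its call in each fit that left out rescue 1, rescue 2, mutant rescue 2, a control or a knockdown library (adjusted p = 0.178, 0.0737, 0.166, 0.0692, 0.0693, 0.0912 and 0.0913). In the HOXA/MEIS1 program of these leukemias, 4 of 19 were higher and 1 lower, with a median of 0.17. The higher count was 2 without rescue 1 or either knockdown library and 1 without rescue 2, and none was lower in those fits. ZEB2 of that list, a repressor of transcription, was at 11.82 and 12.18 against 10.95 and 11.06 (0.99 ± 0.12, adjusted p = 0.00273).

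The difference between the rescue groups was set beside that between knockdown and control, with which it shares no library. Both come from 1 fit with 1 spread per gene over all 8 libraries, so the 2 sets of calls are not independent. In knockdown 696 genes (5.35%) were called higher and 970 (7.45%) lower than in control. Of the 601 genes lower in rescue than in mutant rescue, 193 (32.1%) were higher in knockdown than in control, which is 27.7% of that list, and 7 (1.16%) were lower. Of the 767 genes higher in rescue, 143 (18.6%) were lower in knockdown, 14.7% of that list, and 47 (6.13%) were higher. So the opposite direction was the more frequent in both lists with all libraries. MCEMP1, FCGRT, LGALS3, GRN and RNF130, lower in rescue, were higher in knockdown by 1.24, 1.36, 1.08, 1.26 and 1.25. PLEK, GPR180, HSH2D and MCM7, higher in rescue by 0.74, 0.87, 1.16 and 0.63, were at -0.77, -0.90, -0.96 and -0.60 in knockdown. Their knockdown calls ended without knockdown 1 (adjusted p = 0.0642, 0.0584, 0.0581 and 0.0811), and those of GPR180 and MCM7 also without knockdown 2 (0.0557 and 0.0724). IFI16 and OAS1 were higher in both, by 0.74 and 1.02 in knockdown, and the knockdown call of IFI16 ended without knockdown 1 or 2 (adjusted p = 0.0636 and 0.0781).

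These overlaps of opposite direction grew without mutant rescue 1 and shrank when any other library was left out. The 193 genes became 82, 41, 305 and 159 without rescue 1, rescue 2, mutant rescue 1 and mutant rescue 2, 107 and 116 without a control, and 46 and 47 without a knockdown library. The 143 became 38, 14, 257 and 62, then 68 and 69, and then 3 and 10. Among genes higher in rescue, those also higher in knockdown were the more numerous without rescue 1 (39 against 38) and without rescue 2 (22 against 14). As a share of the genes lower in rescue, the first overlap stayed between 18.1% and 59.6% in these fits, and the 7 genes lower in both became 0 to 58.

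**Figure D5:**
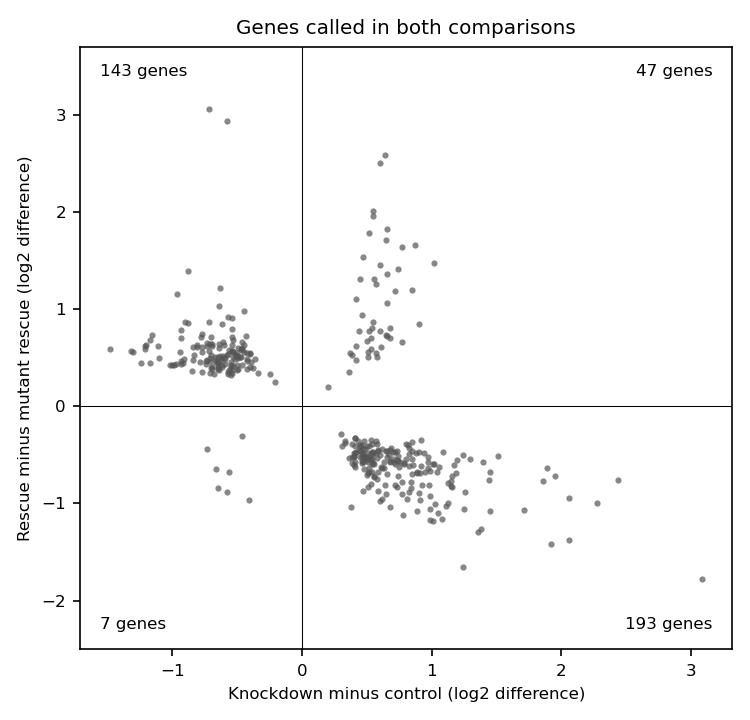
Genes called in both comparisons, with knockdown minus control on the horizontal and rescue minus mutant rescue on the vertical axis (log2 differences, 1 point per gene, counts in the corners). The lower right corner holds 193 genes and the upper left 143, against 47 higher in both and 7 lower in both.

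In the authors' deposited table, 483 named genes were higher and 517 lower in rescue at an adjusted p under 0.05. Of these, 819 were also called here, and for all 819 the direction was the same. Their log2 changes were larger: over the genes they called, the slope of the library differences on the changes in the authors' deposited table was 0.52. For GMPR, the authors' deposited table gave a log2 change of 3.71. The authors' deposited table gave IGF2BP2 a change of 0.46 with an adjusted p of 0.23.

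The called genes also differed in transcript make-up, from 11938 genes (91.7%) with a GENCODE v29 transcript. The median GC content was 46.2% for genes called higher, 54.6% for genes called lower and 49.7% over all tested, and the median transcript length was 1560, 1080 and 1240 bases. Across genes, which are not independent replicates, the Spearman correlation of GC content with the difference was -0.21 against mutant rescue 1 and -0.22 against mutant rescue 2, and it was 0.33 for rescue 1 minus rescue 2. With GC content and length regressed out, a choice made after the data were seen, 694 genes were higher and 511 lower, and 1013 of the calls were shared. In that fit 47 restriction factors and effectors, 26 S phase genes and 20 ribosomal protein genes were called in the directions given above. The part of library composition in the results beyond this fit was not tested.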

How the data were processed

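Polyadenylated RNA of 8 MOLM13 libraries was compared in 4 groups of 2, grouped by the sample titles. Per the file headers, the table was written by HOMER's getDiffExpression.pl; the submitters' processing notes also name Trim Galore, kallisto and GRCh38, without roles or versions. The library columns are log2 values normalized by the authors before they were deposited, in which low genes lie drawn together; no option for this is in the header. The authors' deposited log2 fold changes and p-values stand beside them. Depth is unknown, and counting error cannot be given.

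Of 35370 rows, 1 without a symbol, 26 with a number in its place and 10937 at 0 in every library were left out. Genes with at least 1 ppm of the linear total in 2 libraries (13016) were fitted with limma 3.58.1 (R 4.3.3) on the values as deposited, as group means over 8 libraries with a mean trend and Benjamini-Hochberg adjustment over all genes. The plan allowed for counts or unlogged values, and no pseudocount was needed. The procedure was tested on simulated data. Gene lists are described by counts and medians, with no set test. The comparison, whose libraries the labels set, its members and the 51 gene lists were chosen with earlier results of these data known. Named genes are IGF2BP2, PRMT6 and MFSD2A, the 15 largest called differences each way at 5 ppm or more without overlap of libraries or clone-type symbols, up to 4 called members per list and direction (the highest member where none was called), up to 6 genes per direction pair called in both contrasts, and all members of the interferon lists. Replicate numbers were not treated as pairs. Promoter sequences are RefSeq entries on GRCh38.p14, and 10100 of the tested genes matched one by symbol; positions are from GENCODE v29. Of the tested symbols, 93.1% were found there. Some genes are not reported here.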

Additional observations from a re-analysis of the deposited data

How the results depend on the processing

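Calls between rescue and mutant rescue (1368, with 767 higher and 601 lower) numbered 193 (147 and 46) with only the 4 rescue libraries, 776 (477 and 299) with no filter on low values and 638 (391 and 247) with library weights. Leaving out 1 of the 8 libraries gave 241 to 2869 calls, 171 to 1182 higher and 70 to 1687 lower. The 1666 calls between knockdown and control became 1070 with no filter and 2829 with library weights, and 179 to 2358 when 1 library was left out. Fits that left out libraries had fewer libraries, and the fit with no filter had more genes. Library weights kept the same libraries and genes, at weights of 0.51 in mutant rescue, 1.02 in rescue, 0.85 in control and 2.27 in knockdown. The cause of these shifts was not tested.

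Leaving out 1 library gave IGF2BP2 differences of 0.22 to 0.57, past the test only at 0.57, without mutant rescue 1 (adjusted p = 0.0161). The ranges were -0.0026 to 0.27 for MFSD2A and -0.07 to 0.64 for IGF2BP3, both below 0 without mutant rescue 2, and -0.15 to 0.03 for IGF2BP1, which was above 0 without mutant rescue 1 and with GC content and length regressed out (0.0074). Of these genes IGF2BP3 was called, without mutant rescue 1 only. A replicate block gave 1758 calls, of which 1354 were shared. Deviations of same-numbered libraries correlated at -0.02 to 0.41 between groups and at 0.19 between rescue and mutant rescue, and no label ties same-numbered libraries together, so they were not treated as pairs. Of 218 named called genes, the block kept 217, quantile normalization 212 and library weights 179. With no filter on low values 168 were kept, and with only the 4 rescue libraries 99 were kept and 119 lost. None changed sign in any setting. The fit on log2(value + pseudocount) was not run, because the values are already on a log2 scale. With 2 libraries per group and no counts, depth cannot bound any low value.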

Other observations

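The calls below compare rescue with mutant rescue, where 5.89% of tested genes stood higher and 4.62% lower. Of 33 tested glycolysis and hypoxia genes, 2 were higher and 1 was lower, with a median of -0.18. PDK1, a kinase that keeps pyruvate out of the mitochondrion, was at 9.88 and 10.23 in rescue and at 9.16 and 8.95 in mutant rescue (1.00, limma adjusted p = 0.00748). HIF1A, the oxygen-regulated transcription factor, was higher by 0.67, and ADM, the adrenomedullin gene, differed by -0.65. In cholesterol synthesis and uptake, 1 of 29 genes was higher and 2 were lower, with a median of -0.04. Of 46 fatty acid and lysophospholipid genes, 2 were higher and 6 lower, among them PLIN2, a lipid droplet coat protein, at -0.75, and without rescue 2 none was. Without rescue 2 the calls of PDK1, HIF1A, ADM and PLIN2 ended (adjusted p = 0.0596, 0.0817, 0.101 and 0.0785).

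Among 22 surface receptors and immune checkpoints, 4 were higher and 4 lower, and without rescue 2 the counts were 1 and 0. SIGLEC1, a sialic acid receptor of macrophages, was at 11 and 11.13 in rescue and at 9.32 and 9.39 in mutant rescue (1.71, adjusted p = 0.000222). Of 27 BCL2 family and caspase genes, 2 were higher, PMAIP1 among them, and 1, BAX, was lower. Calls higher and lower were 3 and 1 of 31 for the unfolded protein response, 4 and 0 of 54 for MYC targets and ribosome biogenesis, 1 and 1 of 20 for G1 regulators, and 2 and 0 of 13 for arginine methyltransferases. They were 1 and 2 of 21 for myeloid transcription factors and 1 and 2 of 11 for granule genes. Without rescue 2 no gene of these 6 lists was called, and without rescue 1, mutant rescue 2 or either knockdown library none of the unfolded protein response. None of 28 ATF4, serine and one-carbon genes and none of 9 tested genes of a leukemia stem cell score was called.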
